A study of Mus musculus with 6 samples.

Results

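The integrated stress response is followed here through 10 genes in the olfactory bulbs of mice with a plugged left naris. They are the transcription factor genes Atf5, Atf4, Atf3, Ddit3, Xbp1 and Atf6, the response genes Trib3, Chac1 and Asns, and Hspa5, which encodes the main chaperone of the endoplasmic reticulum (ER). The genes were taken by symbol, 10 of the 22095 genes of the count table, and the group was chosen by name and selected on the read counts of left and right bulbs in these same libraries, scaled to the library total (CPM), where Atf5 had been seen to be low on the left. The difference between the sides is therefore given for them as a description. Of the 10, Atf5 differed most in relation to its error, at 2.99-fold lower in the left bulbs. The other 9 were not called at an adjusted p under 0.05, among them Asns, Ddit3, Trib3 and Chac1, which the pathway is known to switch on. Of all genes tested, 9.62% were called, so the share called among the 10 is close to that background. Trib3 (5 to 22 reads in the libraries compared) and Chac1 (47 to 73 reads) had few counts, so the lack of a call says little for them.

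The integrated stress response begins with kinases that sense ER stress, amino acid shortage, viral RNA or heme deficiency and phosphorylate the translation factor eIF2 alpha. Bulk protein synthesis then slows, while Atf4 and Atf5, whose messages carry upstream reading frames, are translated more. ATF4 protein switches on genes of amino acid supply such as Asns and, when stress lasts, Ddit3, Trib3 and Chac1. The unfolded protein response of the ER shares one of these kinases and adds a pair of further arms, in which XBP1 is made from a spliced message and ATF6 is cut free from the membrane, and both raise ER chaperones. In the nose, Atf5 is known as a factor that olfactory sensory neurons need in order to mature. A count of reads per gene shows the amount of RNA. It does not show translation, the splicing of Xbp1 or the cutting of ATF6.

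Polyadenylated RNA was sequenced from both bulbs of 3 ICR mice, numbered 1037, 1038 and 1039, giving 6 libraries. A silica gel plug was placed in the left naris at postnatal day 30, and 60 days later the mice were perfused and both bulbs were taken. Left libraries thus come from the plugged side and right libraries from the open side of the same animals, and all 3 mice carried the plug. Without an unplugged mouse, a side difference that is present anyway and a difference that follows the plug cannot be told apart.

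The libraries held 14571453 to 15590938 counts. In 5 of them the bulb markers Dlx1 and Cdhr1 were abundant, and the 5 cerebellar marker genes together stood at 1.8 to 3.3 CPM. The library labelled left 1038 went against its label, since the cerebellar markers summed to 3377 CPM there. Its 8 bulb neuron markers summed to 76.5 CPM, where each of the other libraries had 1470 to 1745 CPM. It is shown apart, and the sides were compared over 5 libraries, 2 left and 3 right. Between the sides of these 5, the 8 markers of olfactory sensory neurons together held 25.4 to 76.3 CPM on the left and 252 to 318 CPM on the right. The 5 astrocyte markers held 2094 to 2117 CPM on the left and 1558 to 1735 CPM on the right, a gap carried mostly by Gfap, at 561 CPM on the left and 255 CPM on the right. Gfap and Aqp4 rose, while Aldh1l1 and Slc1a3 had log2 fold changes of -0.23 and -0.02. The 6 microglial markers held 260 to 283 CPM on the left and 216 to 223 CPM on the right. Of these 6, 0 were called by edgeR, with 4 at an unadjusted p under 0.05. That is a loose mark, since an unadjusted p of 0.05 went with an adjusted p of 0.202 (edgeR, Slc3a2). Many of all genes tested thus lay under it. In CPM, 33.2% of all genes tested had both left libraries above all right ones. Oligodendrocyte markers (1843 to 2203 CPM left, 1773 to 2253 CPM right) and vascular markers (259 to 273 CPM left, 255 to 295 CPM right) overlapped.

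The sequence around the transcription start given by RefSeq shows which of the 10 genes carry letters known to bind factors of the response. The windows come from RefSeq on GRCm38.p6, which held 9 of the 10 genes, and each covers 250 bases before and 50 bases after a start. Atf5 is shown because it is the gene that differed, Asns, Chac1, Atf3 and Trib3 because they hold the C/EBP-ATF element through which ATF4 is known to act, and Hspa5 because it holds the ER stress element bound by ATF6 and XBP1. Capitals mark the elements, and each stretch is given 5′ to 3′ along its gene.
Atf5 (chr7:44816659-44816908, minus strand): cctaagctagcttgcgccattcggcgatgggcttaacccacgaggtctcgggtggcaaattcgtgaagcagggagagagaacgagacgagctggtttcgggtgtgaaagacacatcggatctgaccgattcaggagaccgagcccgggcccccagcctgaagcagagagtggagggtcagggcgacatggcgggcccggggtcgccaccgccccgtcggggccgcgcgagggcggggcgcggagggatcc
Asns (chr6:7693216-7693245, minus strand): ggtcccagccacaTGATGAAActtcccgca
Chac1 (chr2:119350992-119351111, plus strand): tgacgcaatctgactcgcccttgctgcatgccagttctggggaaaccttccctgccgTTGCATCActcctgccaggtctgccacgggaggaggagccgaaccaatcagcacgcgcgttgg
Atf3 (chr1:191183334-191183483, minus strand): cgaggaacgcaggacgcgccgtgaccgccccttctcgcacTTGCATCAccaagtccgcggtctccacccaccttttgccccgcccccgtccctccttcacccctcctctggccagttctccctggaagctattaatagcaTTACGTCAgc
Trib3 (chr2:152344027-152344056, minus strand): tagctcaggtTTACATCAgccgggcgggga
Hspa5 (chr2:34772020-34772049, plus strand): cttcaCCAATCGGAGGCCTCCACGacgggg

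The C/EBP-ATF element was searched as TGATGNAA on both strands, and 4 of the 9 genes held it, against 3.97% of the 32851 windows in the RefSeq table. In Asns it lay on the gene's own strand, from base -23 to base -16 counted from the start, and in Chac1 (-193 to -186) and Atf3 (-110 to -103) on the other strand. In Trib3 the other strand held it just after the RefSeq start, from which all these positions are counted. GENCODE M21 ends the span of Trib3, a minus-strand gene, at 152344032, so there the element (152344039 to 152344046) lies before the start. GENCODE M21 also puts all 30 bases shown for Asns, and all 30 for Hspa5, in an exon. The ER stress element, searched on both strands as CCAAT, any 9 bases and CCACG, was found in Hspa5 from base -65 to base -47 and in 0.119% of all windows. Atf3 also held TTACGTCA, an ATF site present in 0.499% of windows. The 250 bases shown for Atf5 held none of these elements, and neither TGACGTCA, the cAMP response element (1.79% of windows), nor TGACGTGG, the unfolded protein response element (0.676%), was found in any of the 9 genes. A match of letters is a description of the sequence and does not show that a factor was bound.

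Levels of different genes were set side by side per kilobase of exons, since longer messages give more reads. In the right bulbs Hspa5 was the most abundant of the 10, with 106 ± 11.8 CPM per kilobase (SD, n = 3), followed by Atf4 with 54.5 ± 1.17 CPM per kilobase. Xbp1 (29.2 to 35.1 CPM per kilobase) and Atf5 (28 to 30 CPM per kilobase) came next, and their right libraries overlapped. Ddit3, Asns and Atf6 followed with means of 19.4, 16.2 and 8.01 CPM per kilobase. The 3 lowest were Chac1 with 2.63 ± 0.413, Atf3 with 1.63 ± 0.714 and Trib3 with 0.230 ± 0.107 CPM per kilobase (SD, n = 3). The right libraries of Chac1 and Atf3 overlapped. In the left bulbs Atf5 stood at 10.2 CPM per kilobase and took place 6 in the order, after Asns, in place of 4 on the right. The other 9 genes kept their order among themselves.

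**Figure D1:**
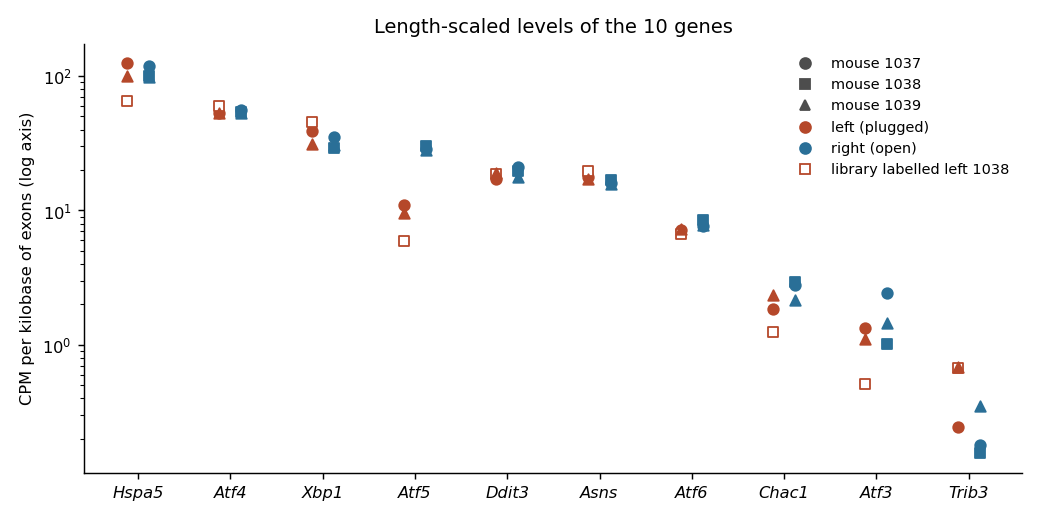
CPM per kilobase of exons (log axis) for each of the 10 genes, ordered by the mean of the right libraries. Points are libraries, with the mouse given by the symbol and the library labelled left 1038 drawn open. The left points of Atf5 (9.46 and 10.9 CPM per kilobase) lie well below its right points (28 to 30), while left and right points of Hspa5 and Xbp1 overlap.

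Atf5, the basic leucine zipper factor of the sensory neuron lineage and of the stress response, lies on chromosome 7 (44812256 to 44816658, minus strand, GRCm38). The left bulbs held 21.8 CPM in mouse 1037 and 18.9 CPM in mouse 1039. The right bulbs held 56.6 CPM in mouse 1037, 59.9 CPM in mouse 1038 and 55.8 CPM in mouse 1039. The sides did not overlap, and the right libraries lay within a narrow band. The log2 fold change, left over right, was -1.58 (SE 0.09), or 2.99-fold lower on the left. Within a mouse the log2 ratio of CPM was -1.38 in mouse 1037 and -1.57 in mouse 1039. In the library labelled left 1038 Atf5 stood at 11.9 CPM, below all the others. In bulk tissue, fewer cells that express a gene and less of its RNA per cell cannot be told apart.

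At an adjusted p under 0.05 (edgeR's quasi-likelihood test, Benjamini-Hochberg over 14412 genes), 1 of the 10 genes was called, Atf5 on the lower side. The share called among all genes tested was 9.62%, with 6.46% lower and 3.16% higher (931 and 456 genes), and 0.569% were both called and over 2-fold lower. Scaled by library totals, 589 genes were called lower and 975 higher. The count of 1 in 10 is close to that background and is given only as a description, since the genes were proposed with these values known. With all 6 libraries the log2 fold change of Atf5 was -1.77 and 0% of genes were called by edgeR, with 1196 of 14209 at an unadjusted p under 0.05. The span of Atf5 overlaps Nup62 and Il4i1 on the opposite strand, and the sources used here do not give whether reads were counted by strand. Nup62 stood at 19.1 to 22.8 CPM in the 5 libraries, with a log2 fold change of -0.14 (SE 0.11), and Il4i1 at no more than 1.13 CPM.

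The axons of olfactory sensory neurons reach the bulb, and 4 of 8 markers of these neurons fell on the left while 0 rose (edgeR, adjusted p from 4.79e-05 to 0.0137): S100a5, a calcium-binding protein, Omp, the olfactory marker protein, and Stoml3 and Gng13. Of the 4 that did not pass, Cnga2, a channel subunit of these neurons, had a log2 fold change of -1.24 (SE 0.42). Cnga4, Rtp1 and Ano2 lay above 0, at 0.14 (SE 0.42), 0.27 (SE 0.59) and 0.27 (SE 0.45), each at no more than 2.19 CPM. The left bulbs differed more from each other in the 4 that fell than in Atf5. Omp had 35.1 CPM in left 1037 but 8.43 CPM in left 1039, where Atf5 had 21.8 and 18.9 CPM. In the library labelled left 1038 S100a5 and Stoml3 had no read and Omp stood at 0.137 CPM, while Gng13 stood at 150 CPM, 4.27 times the right mean, and Atf5 had 173 reads. The part of sensory axon RNA in the difference of Atf5 was not tested.

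**Figure D2:**
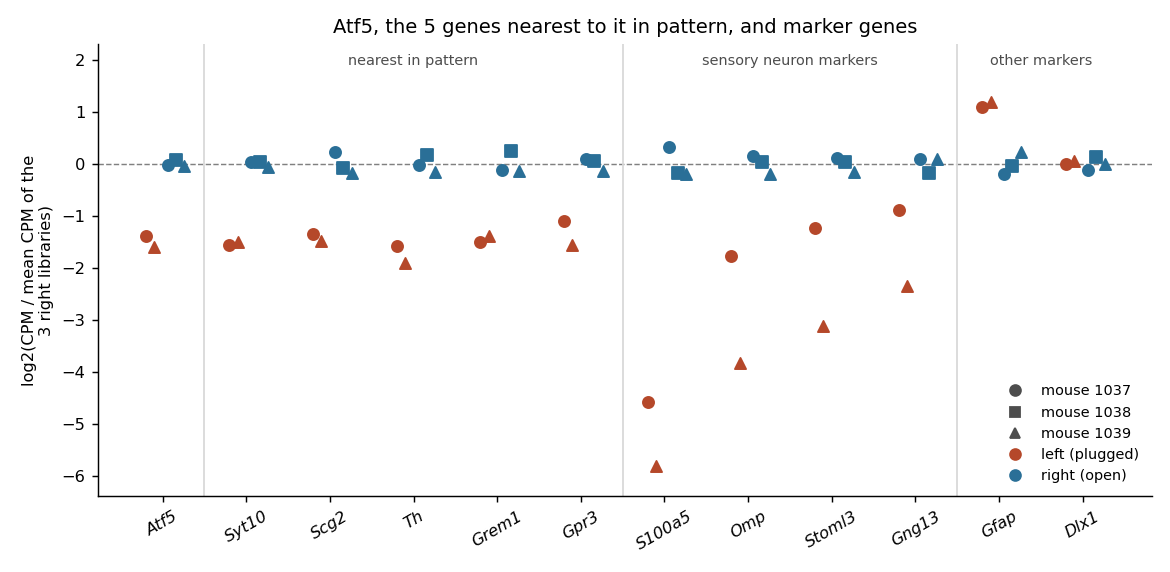
Each library's level relative to the mean of the 3 right libraries, on a log2 scale, for Atf5, the 5 genes nearest to it in pattern and marker genes. Both left libraries of Atf5, Syt10, Scg2, Th, Grem1 and Gpr3 lie between 1 and 2 log2 units below the right mean, while the left libraries of S100a5, Omp, Stoml3 and Gng13 lie further apart from each other.

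The genes whose pattern over the 5 libraries was nearest to that of Atf5 were found among 11819 others with a mean of at least 5 CPM. The measure was the root mean square difference of log2 levels after centring each gene, so a smaller value means a closer pattern. Syt10, a synaptotagmin that acts in the release of insulin-like growth factor, was nearest with 0.0879. It held 19.2 and 20 CPM in the left bulbs and 53.8 to 58.0 CPM in the right bulbs, the same band as Atf5. Scg2, a secretogranin of dense-core vesicles, followed with 0.145 and Th, which carries out the limiting step in making dopamine, with 0.146. Grem1, a secreted antagonist of bone morphogenetic proteins, and Gpr3, a receptor that activates adenylyl cyclase, had 0.152 and 0.157. The sensory markers lay further off, Gng13 at 0.404, Stoml3 at 0.578, Omp at 0.851 and S100a5 at 1.71, as did the other members of the group with at least 5 CPM, from 0.656 for Atf6 to 0.804 for Xbp1. Over 5 libraries from 3 mice such a ranking reads the size of the left to right difference and the spread within a side. Gng13 had a log2 fold change of -1.52, near that of Atf5, but held 19 CPM in left 1037 and 6.84 CPM in left 1039.

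Atf4, the central factor of the response (chromosome 15, 80255184 to 80257541), differed little. It held 126 CPM in left 1037 and 126 CPM in left 1039, against 132, 128 and 126 CPM in right 1037, 1038 and 1039. The sides did not overlap by a narrow margin, and the log2 fold change was -0.11 (SE 0.06). Of all genes tested, 13.2% had both left libraries below all right ones in CPM and 33.2% had both above. By this count 3 of the 10 genes were lower (Atf5, Atf4 and Atf6), 1 was higher (Asns) and 6 overlapped.

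Atf3, a stress-induced repressor of the same factor family (chromosome 1, 191170296 to 191218039), was read by few counts. The left bulbs of mice 1037 and 1039 had 44 and 36 reads (2.85 and 2.39 CPM), and the right bulbs of mice 1037, 1038 and 1039 had 81, 33 and 46 reads (5.20, 2.19 and 3.14 CPM). The sides overlapped, with right 1037 high and right 1038 below both left bulbs. The log2 fold change was -0.51 (SE 0.36), and within a mouse the log2 ratio of CPM was -0.87 in mouse 1037 and -0.39 in mouse 1039. It was -0.74 with the mouse as a block, -0.75 without right 1038 and -0.09 without right 1037.

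Ddit3, also known as CHOP, the factor that links lasting stress to cell death (chromosome 10, 127290774 to 127296288), held 29.1 CPM in left 1037 and 32.4 CPM in left 1039. The right bulbs held 35.7, 33.6 and 30.4 CPM in mice 1037, 1038 and 1039. The sides overlapped, left was below right in mouse 1037 and above it in mouse 1039, and the log2 fold change was -0.20 (SE 0.10). The end of its span overlaps Mars on the opposite strand (127296221 to 127311786), and only reads in that short stretch could be shared. Mars stood at 47.7 to 58.2 CPM with a log2 fold change of 0.04 (SE 0.08).

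Among the response genes, Asns, the enzyme that makes asparagine (chromosome 6, 7675169 to 7693254), held 48.7 and 46.7 CPM in left 1037 and 1039 and 43.9, 45.7 and 43.3 CPM in right 1037, 1038 and 1039. Both left bulbs were above all right bulbs in CPM, but the scaled log2 fold change was 0.02 (SE 0.08). Scaling by trimmed mean of M-values (TMM) lowers left over right values by 0.08 relative to scaling by library totals, by which the value was 0.11.

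Chac1, which breaks down glutathione (chromosome 2, 119351229 to 119354381), had 47 and 58 reads in left 1037 and 1039 (3.05 and 3.85 CPM). The right bulbs of mice 1037, 1038 and 1039 had 71, 73 and 52 reads (4.55, 4.84 and 3.55 CPM). The sides overlapped, the within-mouse log2 ratios were -0.58 and 0.12, and the log2 fold change was -0.41 (SE 0.24).

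Trib3, a pseudokinase that is known to restrain ATF4 (chromosome 2, 152337422 to 152344032), was close to the limit of detection. Left 1037 and 1039 had 8 and 22 reads (0.518 and 1.46 CPM), and right 1037, 1038 and 1039 had 6, 5 and 11 reads (0.385, 0.331 and 0.751 CPM). Exact 95% Poisson intervals, which cover counting error only, ran from 0.224 to 1.02 CPM in left 1037 and from 0.375 to 1.34 CPM in right 1039. The interval of left 1039, 0.915 to 2.21 CPM, overlapped that of right 1039. It lay above those of right 1037 (0.141 to 0.838 CPM) and right 1038 (0.108 to 0.773 CPM). The sides overlapped, with both bulbs of mouse 1039 highest. The log2 fold change was 0.93 (SE 0.58), 1.49 without left 1037 and 0.02 without left 1039. The value thus depended on left 1039, and with these few reads no difference between the sides was detectable.

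**Figure D3:**
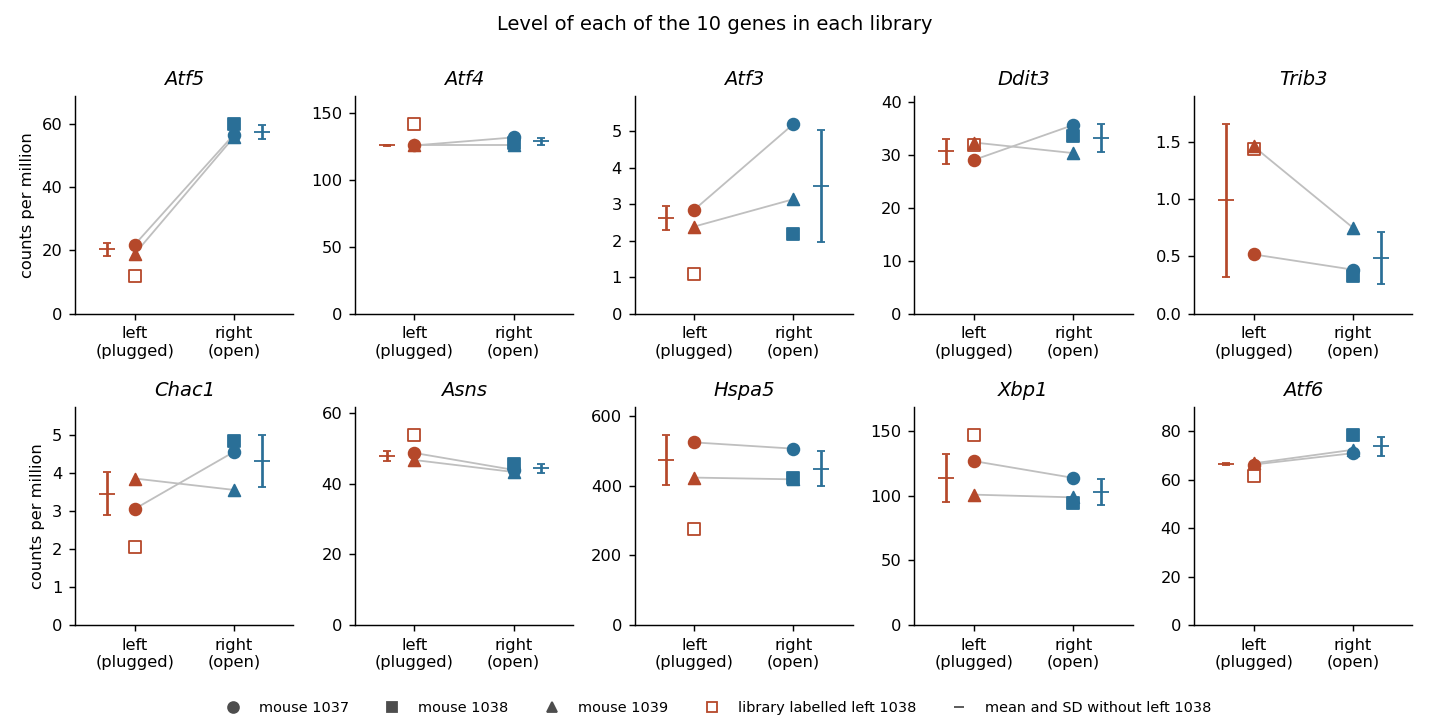
CPM of each of the 10 genes in every library, left and right, with grey lines joining the bulbs of a mouse and mean and SD bars beside the points (n = 2 left, n = 3 right). The library labelled left 1038 is drawn open and is in no mean. Atf5 falls into separate bands of 18.9 to 21.8 CPM and 55.8 to 59.9 CPM, and Hspa5 and Xbp1 are high in both bulbs of mouse 1037.

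Of the genes of the unfolded protein response, Hspa5 and Xbp1 were highest in both bulbs of mouse 1037. Hspa5, the chaperone BiP (chromosome 2, 34771970 to 34777547), held 524 CPM in left 1037 and 423 CPM in left 1039. The right bulbs held 506, 422 and 418 CPM in mice 1037, 1038 and 1039. The log2 fold change between the sides was -0.01 (SE 0.11). Xbp1, the factor whose message is spliced by the sensor IRE1 (chromosome 11, 5520659 to 5525893), held 127 and 101 CPM in left 1037 and 1039 and 114, 94.9 and 98.9 CPM in right 1037, 1038 and 1039. Its log2 fold change between the sides was 0.07 (SE 0.11), or -0.11 without left 1037. Atf6, the membrane-bound sensor and factor (chromosome 1, 170704674 to 170867771), held 66.3 and 66.8 CPM in left 1037 and 1039. It held 71.0, 78.4 and 72.4 CPM in right 1037, 1038 and 1039. The sides did not overlap, and the log2 fold change was -0.23 (SE 0.07), or -0.15 when scaled by library totals.

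Between the sides, the 10 genes had a median log2 fold change of -0.15, against 0.00 over all genes tested, with 7 values below 0 and 3 above. The 6 uncalled genes with a mean over 20 CPM lay within 0.23 of 0. All 10 passed the filter on low counts.

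The other genes of the pathway were read from 6 lists, with 106 of 111 genes tested. Of these, 3 were called, all among the ATF4 targets. That list held genes of amino acid synthesis and transport, tRNA synthetases and stress genes. Of 39 tested, 1 rose, 2 fell and 36 did not pass, or 7.69% called against 9.62% of all genes, with a median log2 fold change of 0.04. Vldlr, a receptor for reelin and lipoproteins, rose by 0.34 on the log2 scale (SE 0.06, adjusted p = 0.00527), with 154 and 158 CPM in left 1037 and 1039 and 117, 116 and 114 CPM in right 1038, 1037 and 1039. Aars, the alanyl-tRNA synthetase, fell by 0.23 (SE 0.06, adjusted p = 0.0429), and Slc1a4, a transporter of neutral amino acids, fell by 0.40 (SE 0.11, adjusted p = 0.05, just under the threshold). With the mouse as a block Aars did not pass (adjusted p = 0.0685). Over 14 alternatives Vldlr passed in 13, Aars in 5 and Slc1a4 in 4, where the same fit without right 1038 is counted under separate names. Neither Aars nor Slc1a4 passed without left 1037 (adjusted p = 0.16 and 0.0832), without left 1039 (0.111 and 0.184) or without right 1038 (0.146 and 0.118), where Vldlr was the 1 target called. Aars also did not pass without right 1037 (adjusted p = 0.133), nor Slc1a4 without right 1039 (adjusted p = 0.0931). With all 6 libraries none of the targets was called by edgeR, with 3 at an unadjusted p under 0.05.

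Psat1 and Phgdh, enzymes of serine synthesis, had log2 fold changes of -0.31 (SE 0.12) and -0.24 (SE 0.15), and Slc7a11, the cystine transporter, had -0.34 (SE 0.16), and none of the 3 passed. Slc7a11 held 111 CPM in left 1037 and 68.2 CPM in left 1039, against 104 to 114 CPM in the right bulbs, so the left bulbs differed from each other. Among the targets above 0, Slc1a5 and Slc38a2, amino acid transporters, had 0.42 (SE 0.19) and 0.28 (SE 0.10), and Aldh1l2, a mitochondrial folate enzyme, had 0.36 (SE 0.13), and none of these passed either. Slc1a5 held 22.3 CPM in left 1037 and 14.3 CPM in left 1039, against 11.2 to 14.1 CPM in the right bulbs. With left 1039 as the only left library Psat1, Phgdh and Slc7a11 were called lower, and with left 1037 as the only left library Slc1a5 and Slc38a2 were called higher. Gdf15 and Fgf21, secreted signals of mitochondrial and amino acid stress, had too few reads to be tested, and Fgf21 had none in any library, which allows up to 0.192 to 0.206 CPM per library.

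The C/EBP-ATF element shown above in Asns, Chac1, Atf3 and Trib3 was also found in 12 of the 31 other ATF4 targets with a RefSeq window, 38.7%. The 3 called genes Vldlr, Aars and Slc1a4 were among these 12, and they moved in both directions. Called were 3 of the 11 tested genes with the element, 0 of 18 without it and 0 of 10 with no RefSeq window. Of all genes tested, 9.62% were called. The calls of Aars and Slc1a4 were lost in many of the alternatives, and a link between element and call was not tested. The median log2 fold change was -0.01 for the 11 tested genes with the element and 0.02 for the 18 tested genes without it in the window.

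In the list of eIF2 kinases, phosphatase subunits and eIF2 and eIF2B subunits, 0 of 14 passed by edgeR, by DESeq2 or by limma-voom, with 2 at an unadjusted p under 0.05 and log2 fold changes from -0.25 to 0.04. Eif2s3x, the gamma subunit of eIF2, had -0.17 (SE 0.06), and Eif2b2, a subunit of its exchange factor, had -0.25 (SE 0.10). Of the 26 ER chaperones and genes of ER-associated degradation 0 passed by edgeR, by DESeq2 or by limma-voom, with 1 at an unadjusted p under 0.05 by edgeR. Their log2 fold changes ran from -0.16 for Hyou1, a chaperone, to 0.25 for Derl3, with a median of 0.01. None of the 6 sensors and ATF6-cutting proteases was called by any of these tools, and 0 lay at an unadjusted p under 0.05. Mbtps1, a protease that cuts ATF6, had 0.14 (SE 0.07), and Ern2, at 0.327 CPM on the left and 0.659 CPM on the right, had -1.07 (SE 0.54). DESeq2 gave no adjusted p for Ern2, so it could not call this gene.

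Among 17 tested related basic leucine zipper factors none was called by any of them, with 5 at an unadjusted p under 0.05. In this fit an unadjusted p of 0.05 went with an adjusted p of 0.202 (edgeR, Slc3a2). Many of all genes tested thus lay under that mark, so the counts at it, here and for the other lists, are no sign of change. Nfe2l2, the factor of the oxidative stress response, had 0.27 (SE 0.11). Batf3 had the value furthest from 0, -1.72 (SE 0.59), at 0.330 CPM on the left and 1.04 CPM on the right, and DESeq2 gave it no adjusted p. Of 10 genes of mitochondrial stress, a setting in which ATF5 protein is known to act, 0 passed by edgeR, DESeq2 or limma-voom and 1 lay at an unadjusted p under 0.05 by edgeR. Hspa9 and Clpx, a mitochondrial chaperone and a protease subunit, had -0.16 (SE 0.06) and -0.15 (SE 0.08).

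**Figure D4:**
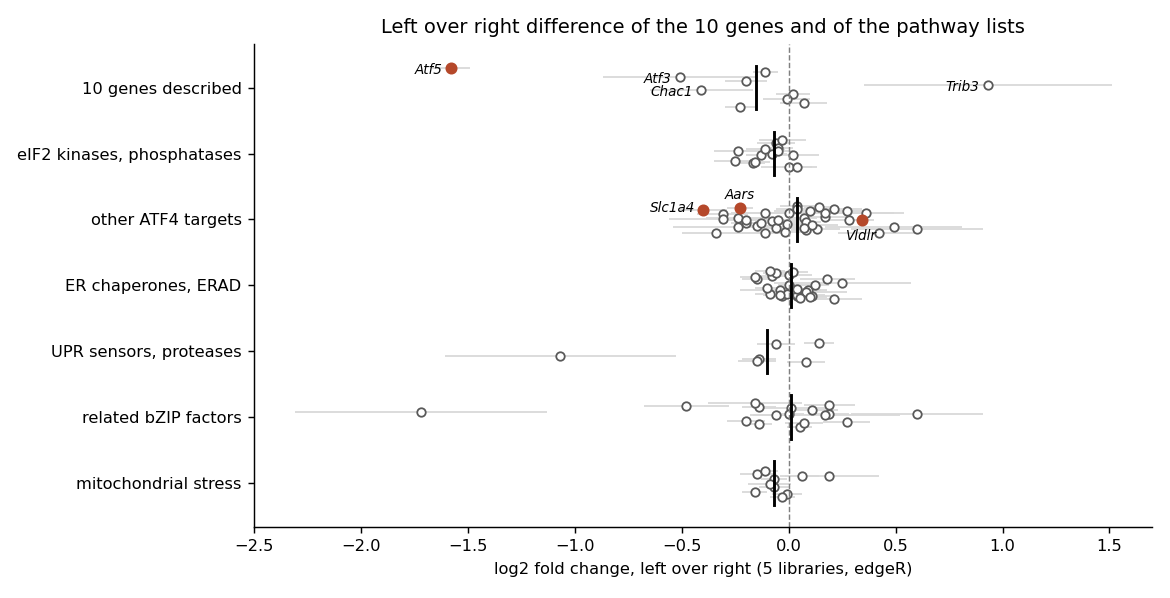
Log2 fold change, left over right, with its SE, for the 10 genes and for each tested gene of the 6 pathway lists. Filled points were called at an adjusted p under 0.05, and black bars are medians. The medians of the lists run from -0.10 to 0.04, while Atf5 stands at -1.58. Batf3 at -1.72 (SE 0.59) and Ern2 at -1.07 (SE 0.54), both with few reads, were not called.

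In the library labelled left 1038 the group read differently. Against the mean of the right bulbs, 6 of the 10 genes were within 2-fold, and 27.3% of all genes tested were further off than that. Atf5 stood at 0.207 times, Atf3 at 0.313 times and Chac1 at 0.477 times the right mean, and Trib3 at 2.95 times. Hspa5 was lower, with 276 CPM, and Xbp1 higher, with 147 CPM. Atf4, Asns, Ddit3 and Atf6 stood at 142, 53.7, 32 and 61.4 CPM. Beyond its exact 95% Poisson interval, 4 of the 10 genes stood above every right bulb (Atf4, Trib3, Asns and Xbp1), 5 below (Atf5, Atf3, Chac1, Hspa5 and Atf6) and 1, Ddit3, did neither. Of all genes tested, 32.9% stood above and 34.5% below by the same count. These are values of a single library, and the right libraries were given no interval in this count.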

How the data were processed

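RNA sequencing counts from 6 libraries (3 mice, both bulbs) were analysed. The authors deposited whole-number read counts for each gene in every library beside RPKM values, per the file headers. The build GRCm38 and the tools HTSeq 0.6.1p2, TopHat2, DESeq 1.18.0 and cutadapt 1.2.1 are listed, per the submitters' processing notes, without saying what each did. The deposited RPKM follows a length within 1 base of the genomic span, introns included, for 78.41% of genes and was not used. Counts of 22095 genes were matched to symbols by Ensembl identifier (243 unmatched), and positions and exon lengths are those of GENCODE M21 on GRCm38. CPM is relative to the library total.

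Sides were compared with edgeR 4.0.16 (R 4.3.3) over 5 libraries by glmQLFit and glmQLFTest, after filterByExpr and TMM scaling, in a model of side alone. The SE is the absolute log2 fold change divided by the square root of F. A gene was called where its adjusted p lay under 0.05. Per the labels, left and right libraries with the same number come from 1 mouse and are paired. Their deviations from the group means correlated at 0.234 in mouse 1037 and 0.248 in mouse 1039, where the 2 left libraries deviate in opposite directions by construction.

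The genes, lists, motifs and the choice of 5 libraries were made with earlier results of these data known. Named genes were the 10, up to 4 called genes per list (or the 2 with the smallest p), and the 5 nearest to Atf5 in log2(CPM + 0.5). Others, among them Psat1, Phgdh, Slc7a11, Gdf15, Fgf21, Derl3, Slc1a5, Slc38a2, Aldh1l2 and the marker genes, were chosen after their values were seen. Alternatives were all 6 libraries, RLE size factors, library totals, other filters, DESeq2 1.42.0, limma-voom (limma 3.58.1), the mouse as a block, and leaving out libraries. Leaving out right 1038 and leaving out both bulbs of mouse 1038 use the same 4 libraries, since left 1038 was already apart. With the mouse as a block, right 1038 has no partner and does not inform the side difference.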

Additional observations from a re-analysis of the deposited data

Results flagged for a closer look

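The library labelled left 1038 is outside the comparison of the sides, and 4 of the 10 genes stood in it above every right bulb by more than its exact 95% Poisson interval, as did 32.9% of all genes tested. Another 5 (Atf5, Atf3, Chac1, Hspa5 and Atf6) stood below every right bulb by the same count, against 34.5% of all genes. Atf4 held 142 CPM (136 to 149 CPM), against 126 to 132 CPM in the right bulbs. Asns held 53.7 CPM (50 to 57.6 CPM), against 43.3 to 45.7 CPM. Xbp1 held 147 CPM (140 to 153 CPM), against 94.9 to 114 CPM. Trib3 held 1.44 CPM (0.892 to 2.20 CPM), against 0.331 to 0.751 CPM. Only left 1038 was given an interval in this count. The intervals of right libraries reach it for Atf4 (right 1037, 126 to 138 CPM) and Trib3 (right 1039, 0.375 to 1.34 CPM). They also reach it for Atf3 (right 1038, 1.5 to 3.07 CPM) and Chac1 (right 1039, 2.65 to 4.65 CPM). The intervals cover counting error only, and the cerebellar markers of that library are given with the data collected.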

How the results depend on the processing

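Over 14 alternatives Atf5 had log2 fold changes from -1.77 to -1.47 and was called in 13, the exception being all 6 libraries, where no gene of the table was called. Among the 14, the fit without right 1038 and the fit without both bulbs of mouse 1038 are the same fit, counted under separate names. Atf5 was picked with its low left values in these libraries known, and the alternatives reuse those values. The number of its calls is therefore a description and no test of Atf5. Against 1387 genes called in the 5 libraries, the count was 0 with all 6 libraries, 660 without both bulbs of mouse 1038 and 660 to 1096 without a single library, with 669 without right 1037, 660 without right 1038 and 885 without left 1039. It was 1553 with the mouse as a replicate block, and that block ended the call of Aars and of no other named gene. With library totals it was 1564. The median log2 fold change of the 10 genes was -0.07 with library totals and -0.25 to -0.09 without a single library. Called ATF4 targets numbered 3, against 0 with all 6 libraries, 1 with library totals, 1 without both bulbs of mouse 1038 and 1 to 4 without a single library. The cause of these moves was not tested. The sign of Hspa5, near 0, was opposite in 5 alternatives. A left side of 1 library is assumed to vary like the right. Low counts limit Trib3, Chac1 and Atf3.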

Other observations

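After the values of Hspa5 and Xbp1 were seen, the ER chaperone list was read by mouse. Both bulbs of mouse 1037 were above the other 3 of the 5 libraries in 14 of its 26 genes, or 53.8%, against 7.59% of all genes tested. Manf, a factor secreted under ER stress, held 70.9 and 63.8 CPM in left and right 1037 and 52.5 to 53.8 CPM in the others. Sdf2l1, an ER protein of the chaperone complex, held 15.6 and 15.0 CPM, against 10.6 to 11.6 CPM. The same count was 2 of 26 for mouse 1039, against 9.30% of all genes. Among the ATF4 targets it was 2 of 39 for mouse 1037 and 1 of 39 for mouse 1039. In the eIF2 list it was 3 of 14 (21.4%) for mouse 1037 and 0 of 14 for mouse 1039. Among the genes of mitochondrial stress it was 2 of 10 (20%) for each of these mice. This describes a single mouse, and its libraries were the deepest, with 15434867 and 15590938 counts. The part of depth in it was not tested.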
